A study of Mus musculus with 24 samples.

Results

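The genes described here code for the 5 enzyme complexes of mitochondrial oxidative phosphorylation in mouse mammospheres, the floating spheres that dissociated mammary cells form when they cannot attach. They are all symbols in the deposited tables that begin with Nduf, Uqcr, Cox4 to Cox8 or Atp5, together with Sdha, Sdhb, Sdhc and Sdhd. This rule gave 90 genes of 15323 different symbols listed in any of the 6 tables. They are 36 genes of complex I, 4 of complex II, 8 of complex III, 16 of complex IV and 15 of complex V, the ATP synthase. The other 11 are 7 assembly factors of complex I with names that begin with Ndufaf, the paralogs Ndufa4l2 and Cox7a2l, and Atp5s and Atp5sl, which are not subunits of the ATP synthase. Of the 90, 87 were listed in all 6 tables. Cox8b was listed only in the tables of PKH-sorted cells, and Atp5b and Ndufaf3 in every table but that of the ErbB2 tumour.

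Complexes I and II take electrons from NADH and succinate, complex III passes them to cytochrome c, and complex IV hands them to oxygen. Complexes I, III and IV pump protons as they do so, and complex V lets the protons back to make ATP. Complex II, which pumps none, is also an enzyme of the tricarboxylic acid cycle. Some subunits of complex IV and of the ATP synthase exist as isoforms from separate genes, several of them known from muscle, testis or low oxygen. The subunits that the mitochondrial genome codes for were not listed in any table under the names searched, so all values concern nuclear genes.

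RNA sequencing of polyadenylated RNA covered 24 libraries in 8 groups of FVB/Hsd mice. Wild-type cells at 7 weeks of age, from normal mammary gland, carried a pWPI lentivirus for Myc-ER (3 libraries) or the empty pWPI vector (3 libraries) and were taken at passage M3. In Myc-ER the transcription factor Myc is joined to a domain of the oestrogen receptor; no ligand is named in the labels. Wild-type PKH-negative cells that then received the Myc-ER virus (3 libraries) were also taken at M3. Uninfected wild-type cells were labelled with PKH, which sits in membranes and is thinned out by each division, and were sorted at M1 into PKH-high (2 libraries) and PKH-negative (3 libraries). The labels give a time after plating, 72 h, for every group but PKH-high and PKH-negative. Trp53 knockout cells (2 libraries) came from uninfected glands at 7 weeks and were taken at M6 to M7. Tumour cells of mice with an ErbB2 transgene, a mutated form driven by the mammary tumour virus promoter MMTV, were uninfected, came from mice of 12 to 15 weeks and were taken at M6 to M7. They received Nutlin-3, a compound that keeps Mdm2 from p53, for 72 h at 2.5 µM (3 libraries) or nothing (5 libraries, of which 3 enter the Nutlin-3 table). Comparisons of the knockout and the tumour with the empty vector thus differ in passage and infection as well as in genotype, and that of the tumour also in age, and their effects cannot be told apart.

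Each table gave the authors' mean normalised count of each group, and no value per library was used here. All means of single genes, their log2 fold changes and adjusted p-values were taken from the authors' deposited table of the stated comparison. Standard errors, printed behind ±, were derived from the authors' fold change and p, and a gene is called higher or lower, or said to rise or fall, where their adjusted p was below 0.05. The summed means per group and table lay between 36651122 and 48054435 normalised counts, and the read depth of each library was not used here. The labels were checked against the genes they concern. Myc had 16782 normalised counts in Myc-ER cells and 2975 in empty-vector cells (2.45 ± 0.20, adjusted p = 2.75e-31), and 28517 normalised counts in Myc-ER PKH-negative cells and 5996 in PKH-negative cells (2.03 ± 0.39, adjusted p = 2.36e-06). Trp53 still had 2998 normalised counts in knockout cells and 4207 in empty-vector cells (-0.49 ± 0.12, adjusted p = 0.00024), a count over the whole gene that does not check which exons are deleted. Its target Cdkn1a had 2370.2 normalised counts in knockout cells and 22565 in empty-vector cells (-3.22 ± 0.24, adjusted p = 2.22e-39), and 21435 normalised counts in Nutlin-3-treated cells and 11731 in untreated cells (0.89, adjusted p = 2.42e-19). Erbb2 went against the tumour label, with 736 normalised counts in cells labelled ErbB2 tumour and 1498 in empty-vector cells (a log2 fold change of -1.003 ± 0.37, adjusted p = 0.0271). The labels do not say whether reads of the transgene map to the mouse gene. Of 6 luminal markers Krt18 and Elf5 were listed in the tumour table, and only Krt18 in the Nutlin-3 table. Krt18 had 175 normalised counts in cells labelled ErbB2 tumour and 733 in empty-vector cells, and Elf5 0 in cells labelled ErbB2 tumour and 78.4 in empty-vector cells. Of 5 basal markers Acta2 and Trp63 were listed in both, and the other 4 luminal markers Epcam, Cdh1, Krt8 and Krt19 and the basal ones Krt5, Krt14 and Oxtr in neither. In the empty-vector group, as listed in the Myc-ER table, the summed means were 3110.0 normalised counts for 6 luminal markers and 821 for the 4 listed basal markers, against 470535 for 5 fibroblast markers. Near-identical copies could affect the counts of 14 members, because at least 25% of the 50-base windows of the longest transcript also occur in other genes or pseudogenes. These members are Atp5l, Atp5h, Uqcrb, Ndufs3, Atp5f1, Ndufb4, Ndufb6, Atp5o, Cox5a, Ndufs5, Ndufa13, Cox7c, Ndufa12 and Cox5b, with shares between 25.9% and 84.8%, and their values are uncertain. Reads without a unique alignment form an entry of their own in the knockout table, so reads of these members could be missing from their counts. In such bulk samples a change in the number of cells of a type cannot be told from a change in RNA per cell.

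Levels per kilobase of transcript placed the complexes in one order in the empty-vector group. The length used was the median over a gene's annotated protein-coding transcripts, so single levels and the order depend on the annotation. For Ndufs1 that median was 651 bases, where the longest transcript had 2661. The median member had 7095 normalised counts per kilobase for complex V, 5714 for complex IV, 4768 for complex III, 3936 for complex II and 2739 for complex I. The Ndufaf assembly factors, which help to build complex I and are not part of it, had 270.0. Levels within a complex spanned wide ranges, in complex V 1471 to 20585 per kilobase and in complex IV 78.6 to 16244. The highest level of all was that of Atp5b, the catalytic beta subunit of the ATP synthase. The lowest were those of Ndufs5 and of the muscle isoforms Cox6a2 and Cox7a1. Together the 87 members listed everywhere held 0.878% of all summed means in Myc-ER cells and 0.668% in empty-vector cells. The share was 0.952% in Myc-ER PKH-negative cells and 0.585% in PKH-negative cells, and 0.804% in PKH-high cells and 0.591% in PKH-negative cells. It was 0.772% in the Trp53 knockout and 0.662% with the empty vector, 0.735% in the ErbB2 tumour and 0.673% with the empty vector, and 0.748% with Nutlin-3 and 0.739% without it.

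**Figure D1:**
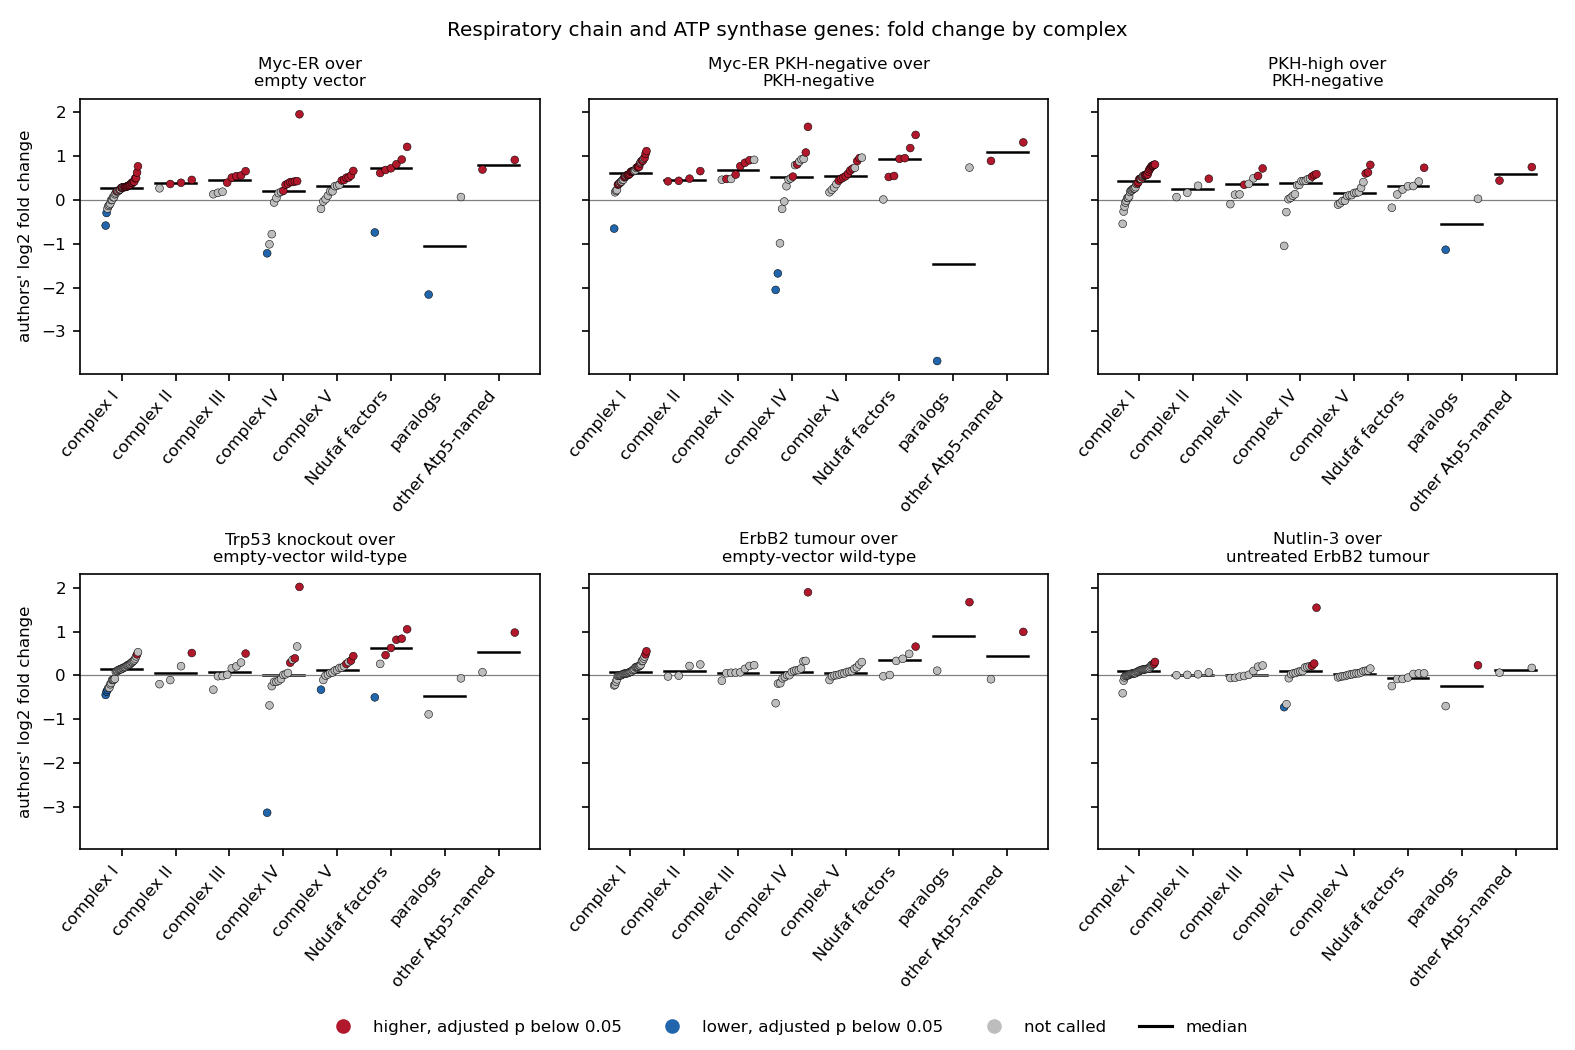
Authors' log2 fold change of each respiratory chain and ATP synthase gene (points, one per gene) by complex or class, in the 6 comparisons, with a bar at the median of each class. Red and blue points passed the authors' adjusted p of 0.05. The medians of complexes I to V lie between 0.21 and 0.45 for Myc-ER over empty vector and between 0.06 and 0.11 for the ErbB2 tumour, while Ndufa4l2, a paralog, lies lowest in both Myc-ER panels.

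The first comparison, of Myc-ER with empty-vector cells, addressed the effect of added Myc activity in wild-type spheres. Genes of all 5 complexes were higher with Myc-ER, 37 of the 50 that passed by less than 1.5-fold: 50 of 89 listed members rose and 5 fell, where 26.7% and 24.1% of all 13873 listed genes did. Their median log2 fold change was 0.30, against -0.02 over all listed genes. The increases took in all 7 core subunits of complex I, 13 of its 29 accessory subunits, 3 of 4 genes of complex II, 5 of 8 of complex III, 8 of 15 of complex IV and 6 of 15 of complex V. The median log2 fold changes were 0.28, 0.38, 0.45, 0.21 and 0.33 for complexes I to V, and the typical implied standard error of a member was 0.12. No test of a difference between complexes was made. Beside these values, the summed means in Myc-ER and empty-vector cells were 221420.0 and 470535 normalised counts for 5 fibroblast markers, 1358 and 3609 for 6 macrophage markers and 1821 and 3110.0 for 6 luminal markers, and their part in the result was not tested.

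In complex I the largest increase was that of Ndufab1, the mitochondrial acyl carrier protein that also serves fatty acid synthesis. It had 2520.3 normalised counts in Myc-ER cells and 1473 in empty-vector cells, a log2 fold change of 0.77 ± 0.15 (adjusted p = 1.24e-06). Ndufs1, the large core subunit with iron-sulphur clusters, had 5749 normalised counts in Myc-ER cells and 3722 in empty-vector cells (0.63 ± 0.09, adjusted p = 1.37e-10). Ndufa10, an accessory subunit of the membrane arm, changed by 0.50 ± 0.08 (adjusted p = 1.15e-09). 2 subunits went the other way. Ndufv3, an accessory subunit beside the NADH site with its gene at chr17:31520115-31531331 (GRCm38), had 1645 normalised counts in Myc-ER cells and 2476 in empty-vector cells (-0.59 ± 0.14, adjusted p = 0.000162). Ndufa1, of the membrane arm, passed narrowly (-0.30 ± 0.13, adjusted p = 0.0491). The membrane-arm accessory subunits had 8 of 19 higher, and the matrix-arm ones 4 of 9 higher.

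Of the 7 Ndufaf assembly factors of complex I 6 rose and 1 fell. Their median log2 fold change was 0.72, against 0.28 for the subunits, a difference that was not tested. Ndufaf6, needed to build the first membrane module, had 444 normalised counts in Myc-ER cells and 190.4 in empty-vector cells, a change of 1.21 ± 0.14 (adjusted p = 6.82e-18). Ndufaf4 had 1029 normalised counts in Myc-ER cells and 539 in empty-vector cells (0.92 ± 0.16, adjusted p = 5.53e-08), and Ndufaf5, an enzyme that hydroxylates a core subunit, 556 normalised counts in Myc-ER cells and 315 in empty-vector cells (0.81 ± 0.14, adjusted p = 1.1e-07). Ndufaf3, which works together with Ndufaf4 in early assembly, fell instead. Its mean was 267 normalised counts in Myc-ER cells and 448 in empty-vector cells (-0.74 ± 0.14, adjusted p = 8.27e-07), so the partners moved in opposite directions. Atp5sl, whose product is known as an assembly factor of complex I despite the symbol, also rose, with 678 normalised counts in Myc-ER cells and 419 in empty-vector cells (0.69 ± 0.11, adjusted p = 8.06e-09). Atp5s, called factor B of the ATP synthase, had 258 normalised counts in Myc-ER cells and 135 in empty-vector cells (0.91 ± 0.24, adjusted p = 0.000515).

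In complex II, Sdha, the flavoprotein that oxidises succinate, had 9080.4 normalised counts in Myc-ER cells and 6601 in empty-vector cells (0.46 ± 0.12, adjusted p = 0.000688). The iron-sulphur subunit Sdhb (0.39 ± 0.10, adjusted p = 0.000331) and the membrane anchor Sdhd (0.36 ± 0.10, adjusted p = 0.000656) rose too. Sdhc, the other anchor, had a value of 0.27 ± 0.13 and did not pass (adjusted p = 0.0677). In complex III the largest increase was that of the small subunit Uqcr11, with 2948 normalised counts in Myc-ER cells and 1868 in empty-vector cells (0.66 ± 0.08, adjusted p = 6.26e-14). The core proteins Uqcrc1 (0.54 ± 0.08, adjusted p = 1.87e-10) and Uqcrc2 (0.56 ± 0.12, adjusted p = 1.98e-05) followed. In complex IV, Cox6b2, an isoform known from testis, rose most and is described with the isoforms. Among the common subunits Cox7a2 (0.43 ± 0.11), Cox5a (0.42 ± 0.08) and Cox4i1 (0.37 ± 0.08, adjusted p = 2.81e-05) rose. Cox5a is among the members with uncertain values. Cox8a (0.04 ± 0.11, adjusted p = 0.761), Cox6a1 (-0.06 ± 0.12, adjusted p = 0.69) and Cox6b1 (0.16 ± 0.08, adjusted p = 0.081) did not pass.

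In the ATP synthase the head subunits Atp5a1, Atp5b and Atp5c1 rose, and so did all 3 genes of the c ring. None of the 4 genes of the outer stalk and none of the 3 small membrane subunits Atp5j2, Atp5k and Atp5l passed, and no difference between these parts was tested. The stalk genes Atp5o (0.33 ± 0.16, adjusted p = 0.0795) and Atp5f1 (0.20 ± 0.10, adjusted p = 0.085) came near the threshold. Both are among the members with uncertain values. The membrane subunit gene Atp5k had a value of similar size with a larger error (0.34 ± 0.22, adjusted p = 0.184). Atp5a1, the alpha subunit, had 38285 normalised counts in Myc-ER cells and 24121 in empty-vector cells (0.66 ± 0.13, adjusted p = 7.62e-07). Atp5b had 56259.5 normalised counts in Myc-ER cells and 39440.3 in empty-vector cells (0.51 ± 0.08, adjusted p = 2.7e-10), and the gamma subunit Atp5c1, the turning shaft, changed by 0.56 ± 0.14 (adjusted p = 0.000206). The remaining head subunits Atp5d (0.31) and Atp5e (-0.20) did not pass, and the medians were 0.11 for the stalk and 0.20 for the small membrane subunits.

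The c ring is a case of 3 genes on separate chromosomes for 1 mature protein. Atp5g1, Atp5g2 and Atp5g3 differ in the part that directs the protein to mitochondria, which is cut off. Atp5g1 had 5412 normalised counts in Myc-ER cells and 3936 in empty-vector cells (0.45 ± 0.17, adjusted p = 0.0148), Atp5g2 8223 normalised counts in Myc-ER cells and 5760.2 in empty-vector cells (0.51 ± 0.16, adjusted p = 0.00443) and Atp5g3 12390.4 normalised counts in Myc-ER cells and 9073 in empty-vector cells (0.45 ± 0.15, adjusted p = 0.00613). The 3 values lie within an implied standard error of each other, and the genes' shares of the ring's level per kilobase differed little between the groups. Atp5g3 held 55.1% in Myc-ER cells and 56.0% in empty-vector cells, and Atp5g2 38.5% in Myc-ER cells and 37.4% in empty-vector cells. Atp5g1 held 6.46% in Myc-ER cells and 6.53% in empty-vector cells. The size of each share depends on the median transcript length used, 2675.5 bases for Atp5g1, 683 for Atp5g2 and 718.5 for Atp5g3.

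Promoter stretches of 6 members are shown for the letters they hold. Those of the 3 c-ring genes are given because their products are the same, that of Ndufaf4 because it is among the largest increases, and those of Cox6b1 and Cox6b2 because both isoforms are described with their values. Each is 120 bases from the stretch before the transcription start in RefSeq on GRCm38.p6, read 5′ to 3′ on the gene's strand, with capitals for a match to the E-box CACGTG that Myc and Max bind, to the core GCATGCGC of the NRF1 site or to the core CCGGAAG of ETS factors, on either strand. The stretch ends at the start, except that it begins 173 bases before it in Ndufaf4 and 250 in Atp5g3. They lie at chr11:96075632-96075751 (minus strand) for Atp5g1, chr15:102671048-102671167 (minus) for Atp5g2, chr2:73911457-73911576 (minus) for Atp5g3, chr4:24897910-24898029 (plus) for Ndufaf4, chr7:30626115-30626234 (minus) for Cox6b1 and chr7:4753095-4753214 (minus) for Cox6b2.
Atp5g1: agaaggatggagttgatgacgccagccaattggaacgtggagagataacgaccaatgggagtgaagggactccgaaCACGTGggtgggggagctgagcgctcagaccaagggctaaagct
Atp5g2: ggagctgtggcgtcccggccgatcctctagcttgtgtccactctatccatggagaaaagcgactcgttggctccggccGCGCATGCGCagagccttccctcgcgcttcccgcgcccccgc
Atp5g3: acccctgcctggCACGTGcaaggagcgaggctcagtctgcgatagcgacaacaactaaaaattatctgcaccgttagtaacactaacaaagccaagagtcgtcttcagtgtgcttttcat
Ndufaf4: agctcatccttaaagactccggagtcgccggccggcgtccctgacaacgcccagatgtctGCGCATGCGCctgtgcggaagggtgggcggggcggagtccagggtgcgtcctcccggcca
Cox6b1: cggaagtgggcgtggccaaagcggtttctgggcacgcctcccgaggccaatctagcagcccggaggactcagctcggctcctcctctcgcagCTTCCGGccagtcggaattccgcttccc
Cox6b2: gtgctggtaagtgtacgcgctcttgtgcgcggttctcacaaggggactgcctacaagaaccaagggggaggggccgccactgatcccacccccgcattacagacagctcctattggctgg
Atp5g1 and Atp5g3 hold an E-box and Atp5g2 an NRF1 core that reads on both strands, as does Ndufaf4. The stretch of Cox6b1 holds an ETS core, and in that of Cox6b2 none of these letters was found. The stretches of the c-ring genes and of Ndufaf4 were placed so as to hold a motif chosen for each gene. The NRF1 core was also looked for in Ndufaf5, Uqcrc1 and Uqcr11, which rose with Myc-ER too. None was found in the 250 bases before their starts. These genes do count as holding the core in the window of the next paragraph, which also takes in bases after the start. In Sdhb and Atp5k the NRF1 core was found in the 120 bases before the start.

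Over the 81 RefSeq promoters that matched 75 members, 250 bases before to 50 after the start, the E-box was in 11.1%, against 7.15% of all 32851 promoters and 9.61% of promoters of genes listed in the Myc-ER table. The NRF1 core was in 14.8% of member promoters, against 2.71% of all and 4.83% of listed ones. The ETS core was in 21.0%, 8.86% and 15.4%, and the YY1 core AAGATGGCG in 11.1%, 1.40% and 2.63%. NRF1, the ETS factor GABP and YY1 are known regulators of nuclear genes for mitochondria. The 7 members with an E-box (Atp5f1, Atp5g1, Atp5g3, Atp5l, Atp5sl, Ndufa7 and Ndufv1) had a median log2 fold change of 0.34 with Myc-ER, and the 68 without one 0.32. For the NRF1 core the medians were 0.37 in 12 members with it, Ndufaf5, Uqcrc1 and Uqcr11 among them, and 0.32 in 63 without it. The ETS and YY1 cores went the other way. The medians were 0.23 in 17 members with the ETS core and 0.33 in 58 without it. They were 0.24 in 8 members with the YY1 core and 0.33 in 67 without it. These differences were not tested. Unmatched members, among them Atp5a1, Ndufa4l2, Ndufaf6 and Cox4i1, were not searched, and a match describes the letters only.

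Myc-ER in PKH-negative cells against uninfected PKH-negative cells repeated the question from another start. Here 52 of 90 members rose and 4 fell, where 18.9% and 18.5% of 14382 listed genes did, and the median log2 fold change was 0.59 against 0.03 over all listed genes. All 4 genes of complex II rose, with 22 of 36 of complex I, 5 of 8 of complex III, 9 of 15 of complex V and 6 of 7 Ndufaf factors. Complex IV had 4 of 16 higher and 2 lower, near the share over all genes. This comparison has no sample in common with the unsorted one. Of the members that rose, 41 did so in both, which is 82.0% of the 50 in unsorted cells and 78.8% of the 52 in PKH-negative cells. Ndufa4l2 and Ndufv3 fell in both, and no member was called in opposite directions. The 6 fibroblast markers summed to 239325 normalised counts in Myc-ER PKH-negative cells and 355311 in PKH-negative cells, and their part in the result was not tested. The groups also differed in passage, M3 against M1, and in infection, and the labels give a time after plating, 72 h, for the Myc-ER group only. These differences cannot be told apart from Myc-ER. The typical implied standard error was 0.23, against 0.12 in the unsorted comparison.

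The largest changes of complex I subunits were those of the membrane-arm gene Ndufb4, of Ndufa7 (1.05 ± 0.41, adjusted p = 0.0318) and of Ndufb9 (0.96 ± 0.28, adjusted p = 0.0024). Ndufb4, a member with shared windows and an uncertain value, had 2851 normalised counts in Myc-ER PKH-negative cells and 1184 in PKH-negative cells (1.11 ± 0.43, adjusted p = 0.0296). Ndufv3 again fell, with 1627 normalised counts in Myc-ER PKH-negative cells and 2585 in PKH-negative cells (-0.65 ± 0.17, adjusted p = 0.000797). Among the assembly factors, Ndufaf6 had 535 normalised counts in Myc-ER PKH-negative cells and 179 in PKH-negative cells (1.48 ± 0.32, adjusted p = 2.33e-05) and Ndufaf4 1338 normalised counts in Myc-ER PKH-negative cells and 572 in PKH-negative cells (1.18 ± 0.24, adjusted p = 7.03e-06). Ndufaf3, lower in unsorted Myc-ER cells, had a value of 0.01 ± 0.36 here (adjusted p = 0.986), and the difference between the comparisons was not tested. In complex II the largest value was that of Sdhb, with 5139 normalised counts in Myc-ER PKH-negative cells and 3248 in PKH-negative cells (0.66 ± 0.11, adjusted p = 4.78e-08). Sdha (0.42 ± 0.09), Sdhc (0.44 ± 0.15) and Sdhd (0.49 ± 0.20) rose as well.

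In complex III, Uqcr11 (0.90 ± 0.28, adjusted p = 0.00442) and the hinge protein gene Uqcrh (0.85 ± 0.26, adjusted p = 0.00478) led. In complex IV the small subunit gene Cox7c, with shared windows (1.08 ± 0.41, adjusted p = 0.0242), and the common isoform Cox4i1 rose. Cox4i1 had a small error, with 14434 normalised counts in Myc-ER PKH-negative cells and 8193 in PKH-negative cells (0.81 ± 0.10, adjusted p = 1.15e-15). Several other complex IV genes had fold changes as large but larger errors. Cox6c had a value of 0.94 ± 0.46 (adjusted p = 0.0966), Ndufa4, now counted as a subunit of complex IV, 0.93 ± 0.41 (adjusted p = 0.0599), and Cox7a2 0.88 ± 0.41 (adjusted p = 0.0759). In complex V the c-ring genes rose again, Atp5g2 the most, with 10285 normalised counts in Myc-ER PKH-negative cells and 5495 in PKH-negative cells (0.89 ± 0.18, adjusted p = 4.97e-06), followed by Atp5g1 (0.60 ± 0.19) and Atp5g3 (0.54 ± 0.12). Atp5g2 held 41.5% of the ring's level per kilobase in Myc-ER PKH-negative cells and 35.7% in PKH-negative cells. Outside the ring, the stalk gene Atp5o, also with shared windows (0.71 ± 0.11, adjusted p = 8.2e-10) and the e subunit Atp5k (0.95 ± 0.26, adjusted p = 0.0013) rose. Atp5s (1.31 ± 0.30) and Atp5sl (0.89 ± 0.19) rose as in unsorted cells.

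PKH-high against PKH-negative cells set cells that had divided little against those that had divided often. Here 30 of 90 members were higher in PKH-high cells and 1 was lower, where 15.6% and 15.1% of 13959 listed genes were, and the median log2 fold change was 0.33 against 0.01 over all listed genes. Complex I held 17 of the 30, of which 12 were among the 19 membrane-arm accessory subunits and 1 among the 7 core subunits. Of complex II 1 of 4 was higher, of complex III 3 of 8, of complex IV 3 of 16 and of complex V 3 of 15. The leading genes of complex I were Ndufb4, Ndufs6 (0.80 ± 0.21, adjusted p = 0.0011) and Ndufc2 (0.78 ± 0.15, adjusted p = 1.46e-06), all accessory subunits. Ndufb4, a member with shared windows and an uncertain value, had 1913 normalised counts in PKH-high cells and 1089 in PKH-negative cells (0.81 ± 0.18, adjusted p = 7.15e-05). In complex V the small membrane subunits Atp5k, with 2736 normalised counts in PKH-high cells and 1567 in PKH-negative cells (0.80 ± 0.16, adjusted p = 3.52e-06), and Atp5l (0.60 ± 0.21, adjusted p = 0.0194) were higher, as was the head subunit Atp5e (0.63 ± 0.22, adjusted p = 0.0173). Atp5l is among the members with uncertain values. The large head subunits had values near 0, namely -0.02 ± 0.11 for Atp5a1, -0.07 ± 0.16 for Atp5b and -0.11 ± 0.14 for Atp5c1.

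In complex III, Uqcr10 (0.72 ± 0.21, adjusted p = 0.00428), Uqcr11 (0.55 ± 0.20) and Uqcrb (0.35 ± 0.12), all small subunits, were higher, while the core proteins Uqcrc1 (-0.10 ± 0.14, adjusted p = 0.644) and Uqcrc2 (0.12 ± 0.12, adjusted p = 0.486) did not pass. Complex IV had Cox7c (0.59 ± 0.22), Ndufa4 (0.57 ± 0.23) and Cox6b1 (0.53 ± 0.21, adjusted p = 0.0351) higher, and complex II Sdhb (0.48 ± 0.19, adjusted p = 0.0346). Uqcrb and Cox7c are among the members with uncertain values. Sdha (0.06 ± 0.13), Sdhc (0.32 ± 0.17) and Sdhd (0.16 ± 0.18) did not pass, and of the Ndufaf factors Ndufaf4 alone did (0.73 ± 0.18, adjusted p = 0.000491). Markers of other cells differed widely in this contrast. The summed means in PKH-high and PKH-negative cells were 39299 and 950.3 normalised counts for 6 macrophage markers, 35669 and 1123 for 5 endothelial ones, 32579 and 462 for 6 luminal ones and 163886 and 326710.0 for 6 fibroblast ones. The part of this difference in cell types in the values above was not tested.

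Most of the members higher in PKH-high cells have short transcripts. Among the 45 members with a mean of at least 100 and a median transcript of up to 750 bases, 22 were higher and the median log2 fold change was 0.48. Among the 17 of 1001 to 1500 bases 1 was higher, with a median of 0.16. Other genes of the same table showed a weaker trend of the same direction, with medians of 0.09 in the shortest class, 0.07 at 1001 to 1500 bases and -0.13 over 4000 bases. Spearman's rho between length and fold change was -0.59 across 84 members and -0.15 across 10887 other genes. Genes of one table share their libraries and are not independent replicates. In complex I, 12 of 18 genes of up to 750 bases and 5 of 18 longer ones were higher. In complex V it was 3 of 9 and none of 6. Core subunits of complex I had a median transcript of 977 bases and membrane-arm accessory ones 629, so role and length cannot be told apart here. The classes also depend on the annotated transcripts. The core genes Ndufs1 (median 651 bases, longest 2661) and Uqcrc1 (median 533, longest 1653) fall in the shortest class. With Myc-ER in unsorted cells the order was the reverse among members, with medians of 0.26 up to 750 bases and 0.39 at 1001 to 1500, while other genes had 0.11 and 0.04. In the Myc-ER PKH-negative comparison members had 0.73 and 0.55, and other genes 0.18 and 0.12. The part of transcript length in these values was not tested.

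**Figure D2:**
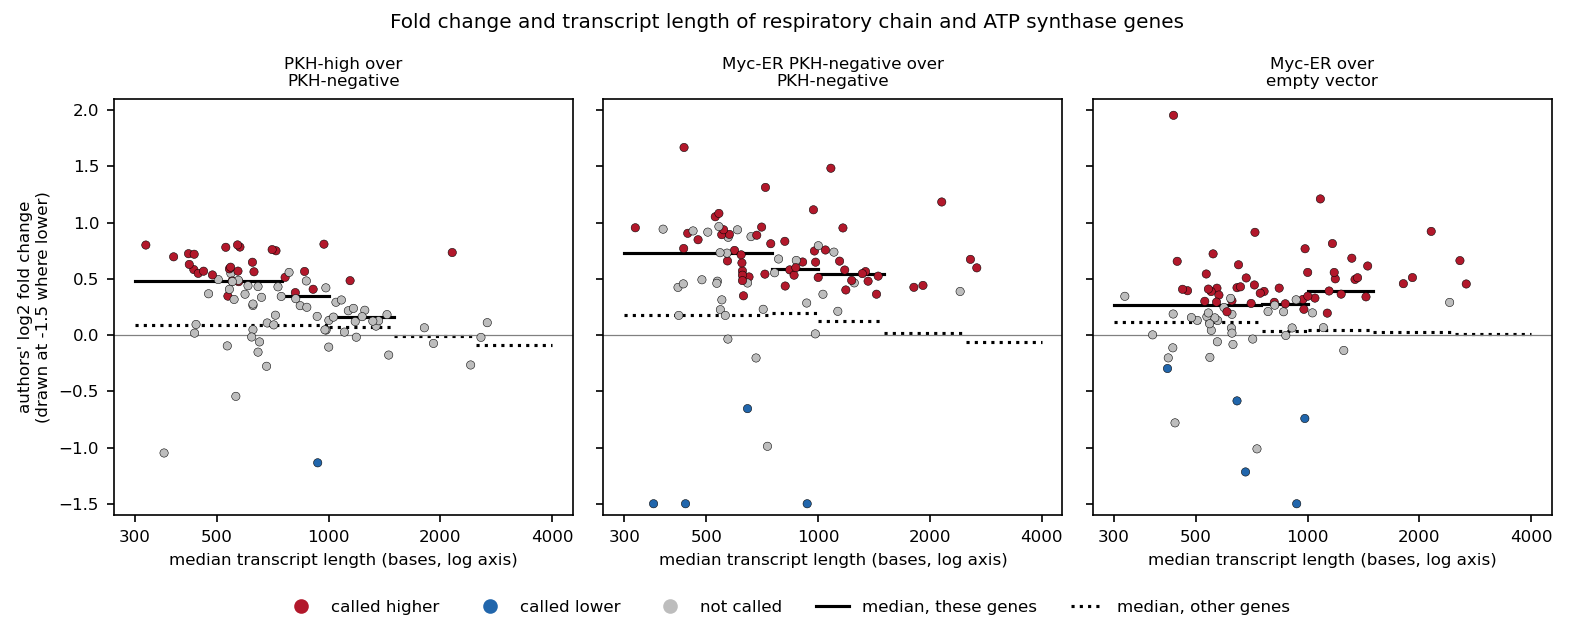
Authors' log2 fold change against the median length of a gene's transcripts (log axis) for the members with a length, in the comparisons PKH-high over PKH-negative, Myc-ER PKH-negative over PKH-negative and Myc-ER over empty vector. Solid bars are medians of these genes and dotted bars medians of other genes by length class, over genes with a mean of at least 100. In PKH-high cells the solid bars step down with length, 0.48 and then 0.35 and 0.16.

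Trp53 knockout against empty-vector mammospheres asked what changes without p53. Few structural subunits passed, while most Ndufaf assembly factors did. In all 15 of 89 members rose and 6 fell, where 22.3% and 23.6% of 14699 listed genes did. The median log2 fold change was 0.14, against 0.01 over all listed genes. Complex I had 1 of 36 subunits higher and 3 lower, and complexes II to V had 1 of 4, 1 of 8, 3 of 15 and 3 of 15 higher. By comparison 5 of 7 Ndufaf factors rose and 1 fell. Ndufaf5 had 667 normalised counts in knockout cells and 321 in empty-vector cells (1.05 ± 0.17, adjusted p = 4.54e-09), Ndufaf1 538 normalised counts in knockout cells and 300.4 in empty-vector cells (0.84 ± 0.17, adjusted p = 7.64e-06) and Ndufaf7, which methylates a core subunit, 986 normalised counts in knockout cells and 559 in empty-vector cells (0.81 ± 0.21, adjusted p = 0.000413). Ndufaf3 fell (-0.50 ± 0.16, adjusted p = 0.00688). Of the subunits of complex I, the core subunit Ndufs3 rose (0.48 ± 0.15, adjusted p = 0.00372), and Ndufs4 (-0.44 ± 0.18, adjusted p = 0.028), Ndufb8 (-0.37 ± 0.10, adjusted p = 0.00109) and Ndufa11 (-0.33 ± 0.14, adjusted p = 0.049) fell. The contrast and that of Myc-ER share the empty-vector libraries, so their values are given side by side only.

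Single genes of the other complexes differed in direction in the knockout. In complex II, Sdha had 9601 normalised counts in knockout cells and 6727 in empty-vector cells (0.51 ± 0.14, adjusted p = 0.00127), while Sdhb (-0.11 ± 0.12, adjusted p = 0.475), Sdhc (0.21 ± 0.12, adjusted p = 0.128) and Sdhd (-0.20 ± 0.12, adjusted p = 0.169) did not pass. In complex III Uqcr11 rose (0.50 ± 0.12, adjusted p = 0.000271). In complex V the shaft subunit Atp5c1 (0.44 ± 0.12, adjusted p = 0.000541), the f subunit Atp5j2 (0.34 ± 0.11, adjusted p = 0.00481) and Atp5e (0.26 ± 0.09, adjusted p = 0.0107) rose, and the g subunit Atp5l fell (-0.33 ± 0.14, adjusted p = 0.0453). Ndufs3, Atp5l and Cox5b are among the members with uncertain values. None of the c-ring genes passed, with values of 0.13 ± 0.16 for Atp5g1, -0.10 ± 0.13 for Atp5g2 and 0.31 ± 0.21 for Atp5g3. The common complex IV subunits Cox5b (0.39 ± 0.12, adjusted p = 0.00465) and Cox7b (0.29 ± 0.12, adjusted p = 0.0295) rose. Atp5s rose as well, with 275 normalised counts in knockout cells and 137 in empty-vector cells (0.98 ± 0.41, adjusted p = 0.0362). Beside these values, the summed means in knockout and empty-vector cells were 127 and 3691 normalised counts for 6 macrophage markers and 138 and 5297 for 5 endothelial markers. They were 2101 and 3201 for 6 luminal markers, 78.0 and 829 for 3 listed basal markers, and 465128 and 494298 for 6 fibroblast markers. The median log2 fold change of the luminal markers was -4.60, with 2 of 6 above 0. Markers low in the knockout may be listed only through the empty-vector group, so these values are a description only. The part of these cell types in the results was not tested.

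Cells labelled ErbB2 tumour against empty-vector cells asked what sets tumour spheres apart. Few of these genes passed: 6 of 87 listed members were higher in the tumour-labelled cells and none was lower, where 13.5% and 13.6% of 13288 listed genes were. The median log2 fold change was 0.08, against 0.02 over all listed genes. At an unadjusted p below 0.05 by the authors' DESeq2 test 10 members were higher and none lower. No gene of complexes II, III or V passed, with 4, 8 and 14 listed, and 1 of them, in complex V, had an unadjusted p below 0.05. The medians were 0.11, 0.07 and 0.06, and the typical implied standard error of a member was 0.20, wider than the 0.12 of the Myc-ER comparison, so changes of the size seen with Myc-ER could have been missed. The 6 genes came from different classes. Ndufa10 had 3678 normalised counts in tumour-labelled cells and 2508 in empty-vector cells (0.55 ± 0.11, adjusted p = 1.12e-05) and Ndufa5, of the matrix arm, 1470.2 normalised counts in tumour-labelled cells and 1051 in empty-vector cells (0.48 ± 0.15, adjusted p = 0.00593). Ndufaf7 (0.66 ± 0.17, adjusted p = 0.00117) and Atp5s, with 248 normalised counts in tumour-labelled cells and 124 in empty-vector cells (0.99 ± 0.21, adjusted p = 4.18e-05), were also higher. The largest changes were those of Cox6a2 and Ndufa4l2, described with the isoforms. The genes of complex II had values of 0.22 ± 0.20 for Sdha (adjusted p = 0.467), -0.01 ± 0.21 for Sdhb, 0.25 ± 0.19 for Sdhc and -0.02 ± 0.22 for Sdhd. The 6 fibroblast markers summed to 344268 normalised counts in tumour-labelled cells and 446184 in empty-vector cells, and the 6 macrophage markers, 4 of them lower, to 757 in tumour-labelled cells and 3332 in empty-vector cells. The 2 listed basal markers summed to 37 in tumour-labelled cells and 527 in empty-vector cells, the 2 luminal ones to 175 in tumour-labelled cells and 811 in empty-vector cells, and the 1 endothelial one, Kdr, to 25.9 in tumour-labelled cells and 285 in empty-vector cells. Their part in these values was not tested.

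Nutlin-3 against no treatment in tumour spheres asked what stabilised p53 changes. The authors paired the samples by tumour, and their fold change is a mean over pairs that carries no standard error here. With Nutlin-3, 6 of 89 members were higher and 1 was lower, where 7.71% and 7.03% of 13038 listed genes were, and the median log2 fold change was 0.05 against 0.03 over all listed genes. The share of members called higher was thus near that of all genes. No gene of complexes II, III or V passed, nor any Ndufaf factor, and 2 genes of complex III and none of the others had an unadjusted p below 0.05 by the authors' DESeq2 test. All 15 genes of complex V lay between -0.04 and 0.16. Apart from Cox6b2 and Cox4i2, the called genes moved by 0.22 to 0.31. Ndufa11 had 2125 normalised counts in treated cells and 1701 in untreated cells (0.31, adjusted p = 0.00988), and Cox8a 8493 normalised counts in treated cells and 6784 in untreated cells (0.27, adjusted p = 0.0183). Ndufv3 (0.27, adjusted p = 0.0429), Cox4i1 (0.22, adjusted p = 0.0204) and the paralog Cox7a2l, known from respiratory supercomplexes (0.23, adjusted p = 0.0265), were also higher. Sdha (0.01), Sdhb (0.07), Sdhc (0.03) and Sdhd (0.01) had values near 0. The untreated libraries also enter the comparison of the tumour with the empty vector.

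**Figure D3:**
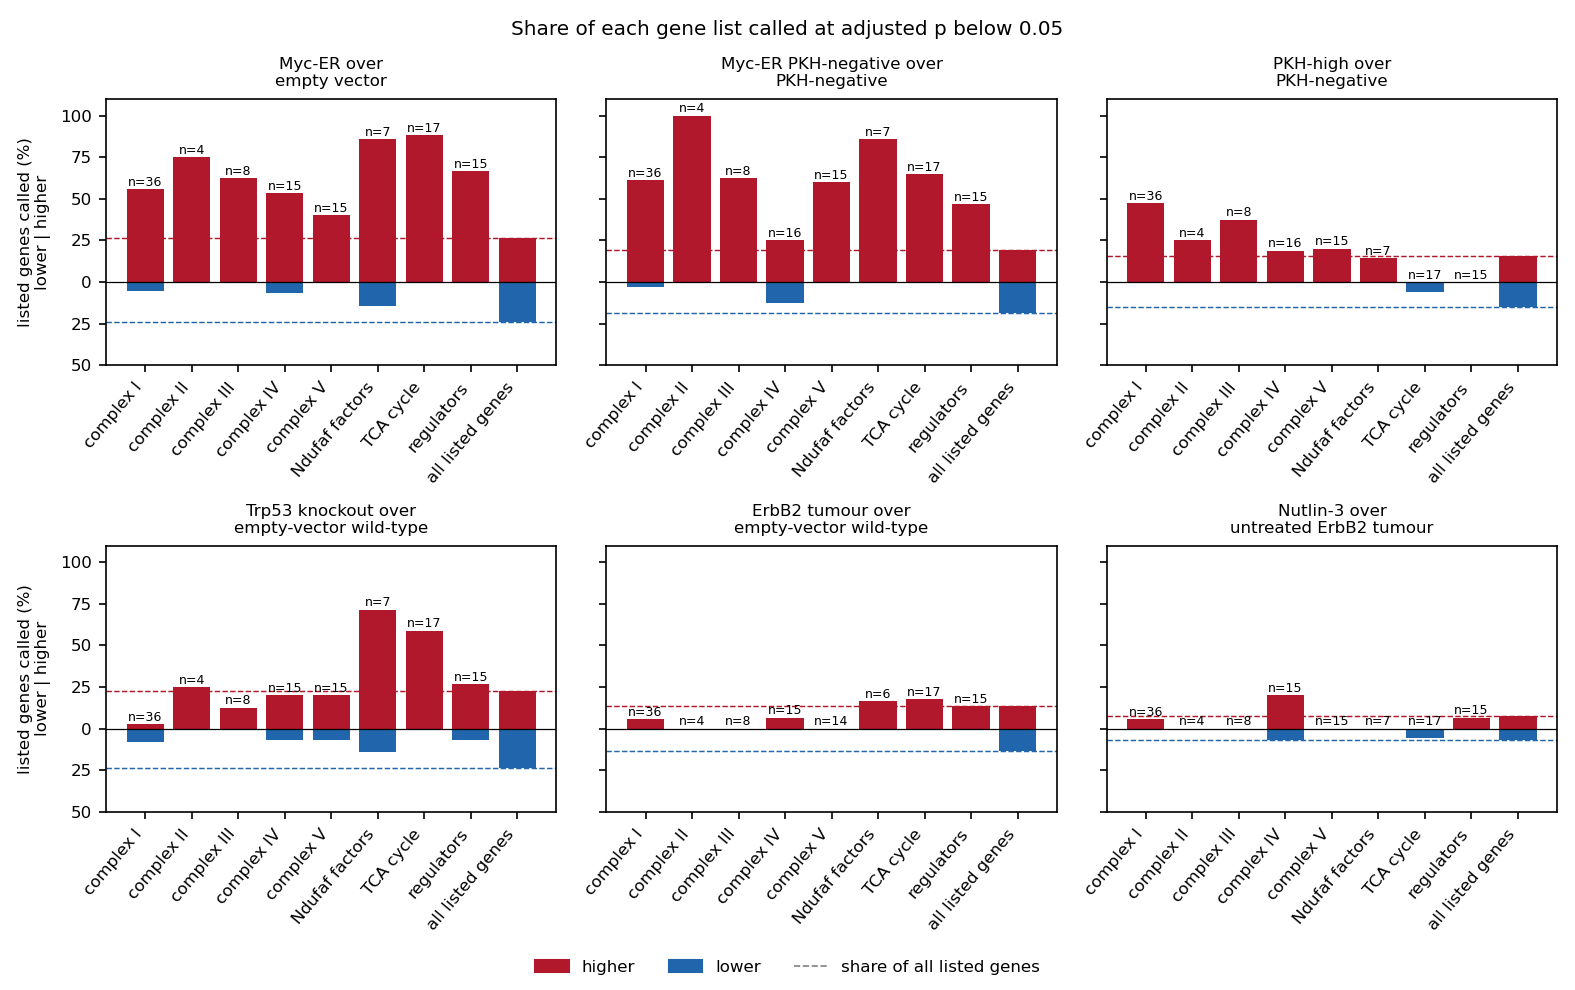
Percentage of the listed genes of each complex, of the Ndufaf factors, of tricarboxylic acid (TCA) cycle enzymes and of regulators of mitochondrial gene expression that were called higher (red, upward) or lower (blue, downward) at the authors' adjusted p of 0.05, in the 6 comparisons, with the number listed above each bar. Dashed lines mark the share of all listed genes, 26.7% higher and 24.1% lower for Myc-ER over empty vector. Complexes I to V exceed the upper line in that panel and lie below it in the ErbB2 panel.

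The largest changes of all belonged to minor isoforms and to Ndufa4l2, with values that moved in both directions. Ndufa4l2 (at chr10:127514967-127517154, GRCm38) is a paralog of the complex IV subunit Ndufa4, known as a gene induced by low oxygen. It had 304 normalised counts in Myc-ER cells and 1455 in empty-vector cells (-2.16 ± 0.32, adjusted p = 2.01e-10). Among PKH-negative cells it had 218 normalised counts in the Myc-ER group and 4024 in the uninfected group (-3.67 ± 0.44, adjusted p = 2.42e-15), the most negative value of any member. It was also lower in PKH-high cells, with 1633 normalised counts in PKH-high cells and 3699 in PKH-negative cells (-1.14 ± 0.42, adjusted p = 0.026). In the tumour it was higher, with 4373 normalised counts in tumour-labelled cells and 1346 in empty-vector cells (1.67 ± 0.34, adjusted p = 1.04e-05). The knockout (-0.89 ± 0.47, adjusted p = 0.114) and Nutlin-3 (-0.70, adjusted p = 0.3) values did not pass. The fall with Myc-ER went against a rise of Ndufa4, which had 4576 normalised counts in Myc-ER cells and 3440.1 in empty-vector cells (0.41 ± 0.16, adjusted p = 0.0278). Of the summed level per kilobase of the pair, Ndufa4l2 held 3.17% in Myc-ER cells and 17.2% in empty-vector cells, 1.42% in Myc-ER PKH-negative cells and 35.3% in PKH-negative cells, and 38.5% in tumour-labelled cells and 17.3% with the empty vector.

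Cox6b2 (at chr7:4751792-4753094, GRCm38), the testis isoform of the Cox6b subunit, was the largest increase among members with Myc-ER. It had 413 normalised counts in Myc-ER cells and 93.2 in empty-vector cells (1.95 ± 0.44, adjusted p = 4.24e-05), and 338 normalised counts in Myc-ER PKH-negative cells and 99.3 in PKH-negative cells (1.67 ± 0.32, adjusted p = 1.77e-06). In the knockout comparison its mean reached the authors' minimum of 10 only in empty-vector cells, so the values are a description only, with 9.88 normalised counts in knockout cells and 95.4 in empty-vector cells (-3.13 ± 0.53, adjusted p = 3.39e-08). It rose with Nutlin-3, with 112 normalised counts in treated cells and 42.2 in untreated cells (1.55, adjusted p = 0.000497). The values in the tumour (-0.63 ± 0.57, adjusted p = 0.448) and in PKH-high cells (0.02 ± 0.51, adjusted p = 0.985) did not pass. The common isoform Cox6b1 had 6619 normalised counts in Myc-ER cells and 5941 in empty-vector cells, and 5721 normalised counts in knockout cells and 6056 in empty-vector cells (-0.08 ± 0.11, adjusted p = 0.549). Cox6b2 remained the minor form everywhere, with 6.51% of the pair's level per kilobase in Myc-ER cells and 1.72% in empty-vector cells, and 0.193% in knockout cells and 1.73% in empty-vector cells.

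The isoforms Cox6a2, Cox7a1 and Cox8b, known from heart and skeletal muscle, were listed at means far below those of the common forms. Cox6a2 had 20.5 normalised counts in Myc-ER cells and 53.4 in empty-vector cells (-1.22 ± 0.50, adjusted p = 0.033), and 197 normalised counts in tumour-labelled cells and 49.2 in empty-vector cells (1.90 ± 0.57, adjusted p = 0.00557). Cox7a1 rose in the knockout, with 162 normalised counts in knockout cells and 38.8 in empty-vector cells (2.02 ± 0.36, adjusted p = 2.48e-07), and fell with Myc-ER in PKH-negative cells, with 19.3 normalised counts in the Myc-ER group and 68.5 in the uninfected group (-1.68 ± 0.34, adjusted p = 1.06e-05). Cox8b had 3.72 normalised counts in Myc-ER PKH-negative cells and 23.6 in PKH-negative cells (-2.05 ± 0.54, adjusted p = 0.000881). It passed the authors' minimum mean of 10 only through the PKH-negative group, so it is given as a description only. Striated muscle markers moved beside these genes. The summed means of the 7 markers, contractile genes such as Acta1 and Tnnt3 among them, were 786 normalised counts in Myc-ER PKH-negative cells and 4622 in PKH-negative cells, with 6 of 7 lower. In the knockout 6 listed markers summed to 37.6 and in empty-vector cells to 1359, where Cox7a1 rose. In the tumour the 3 listed markers summed to 28.4, against 303 with the empty vector, where Cox6a2 rose. Markers this low in the knockout or tumour may be listed only through the empty-vector group, so these sums are a description only. The part of muscle cells in these values was not tested.

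Cox4i2, the isoform of the regulatory subunit 4 known from lung and low oxygen, fell with Nutlin-3, with 297 normalised counts in treated cells and 398 in untreated cells (-0.72, adjusted p = 0.0245). Elsewhere its means differed, for example 107 normalised counts in Myc-ER cells and 242 in empty-vector cells, and did not pass (-1.01 ± 0.53, adjusted p = 0.0958). The common Cox4i1 outweighed it in every group, and Cox4i2 held 0.846% of the pair's level per kilobase in Myc-ER cells and 2.43% in empty-vector cells. The paralog Cox7a2l did not pass with Myc-ER (0.07 ± 0.07), in the knockout (-0.07 ± 0.24) or in the tumour (0.11 ± 0.12).

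For comparison the common partners are given in all 6 tables. Cox7a2, the partner of Cox7a1, had log2 fold changes of 0.43 ± 0.11 with Myc-ER, 0.88 ± 0.41 with Myc-ER in PKH-negative cells, 0.34 ± 0.22 in PKH-high cells, -0.15 ± 0.13 in the knockout, 0.11 ± 0.22 in tumour-labelled cells and 0.05 with Nutlin-3, of which the first passed. Cox6a1, the partner of Cox6a2, had -0.06 ± 0.12 with Myc-ER, -0.04 ± 0.15 with Myc-ER in PKH-negative cells, 0.49 ± 0.21 in PKH-high cells, 0.01 ± 0.16 in the knockout, -0.18 ± 0.29 in tumour-labelled cells and 0.18 with Nutlin-3, and none passed. Cox8a, the partner of Cox8b, had 0.04 ± 0.11 with Myc-ER, 0.31 ± 0.24 with Myc-ER in PKH-negative cells, 0.48 ± 0.25 in PKH-high cells, -0.15 ± 0.15 in the knockout, -0.19 ± 0.31 in tumour-labelled cells and 0.27 with Nutlin-3, of which the last passed. Cox4i1, the partner of Cox4i2, had 0.37 ± 0.08 with Myc-ER, 0.81 ± 0.10 with Myc-ER in PKH-negative cells, 0.34 ± 0.16 in PKH-high cells, -0.12 ± 0.08 in the knockout, -0.03 ± 0.19 in tumour-labelled cells and 0.22 with Nutlin-3. It passed in both Myc-ER comparisons and with Nutlin-3. Of the muscle isoforms, Cox6a2 had -1.22 ± 0.50 with Myc-ER, -0.20 ± 0.50 with Myc-ER in PKH-negative cells, -0.28 ± 0.43 in PKH-high cells, -0.68 ± 0.78 in the knockout, 1.90 ± 0.57 in tumour-labelled cells and -0.66 with Nutlin-3, and it passed with Myc-ER in unsorted cells and in tumour-labelled cells. Cox7a1 had -0.78 ± 0.39 with Myc-ER, -1.68 ± 0.34 with Myc-ER in PKH-negative cells, 0.09 ± 0.48 in PKH-high cells, 2.02 ± 0.36 in the knockout, 0.32 ± 0.78 in tumour-labelled cells and -0.06 with Nutlin-3.

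**Figure D4:**
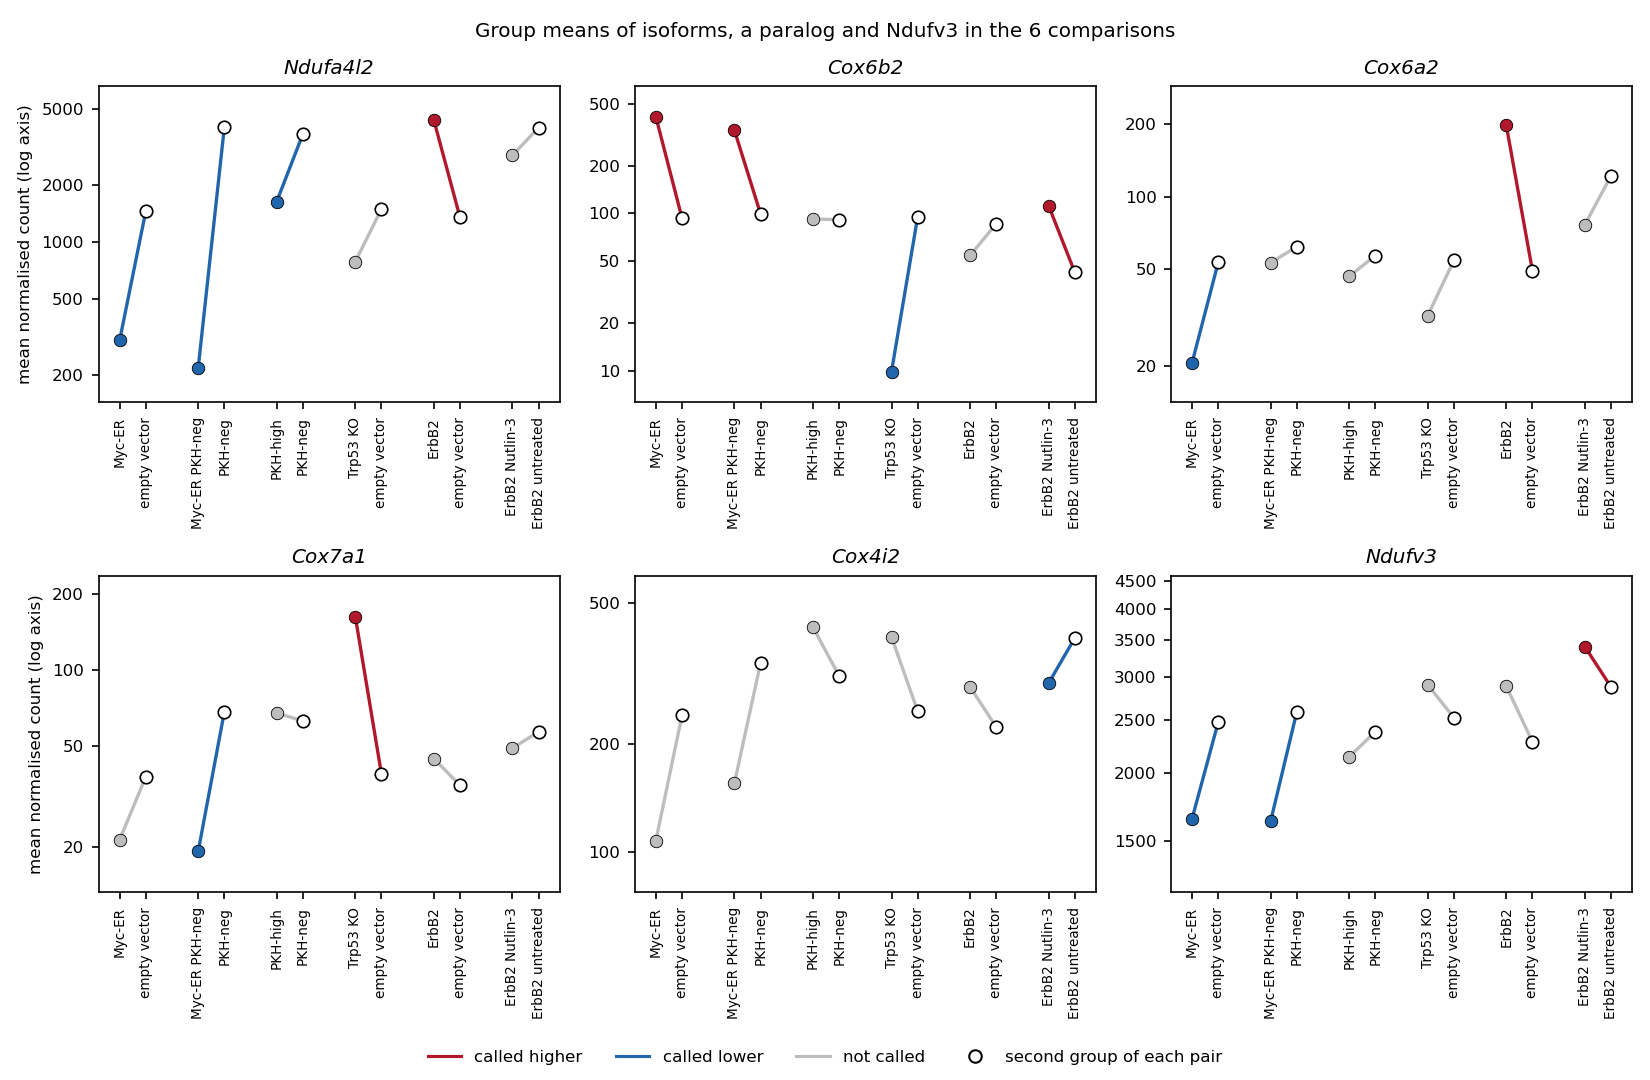
Authors' mean normalised count (log axis) of Ndufa4l2, of the minor isoforms Cox6b2, Cox6a2, Cox7a1 and Cox4i2 and of the complex I subunit Ndufv3, in both groups of each comparison, joined by a line coloured by the call. Axes differ between panels, and means are comparable within a pair only. Cox6b2 has 413 normalised counts in Myc-ER cells and 93.2 in empty-vector cells, and 9.88 in knockout and 95.4 in empty-vector cells.

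Genes that serve the same complexes but lie outside the symbols above were counted for comparison, each list beside the share of all listed genes. In the Myc-ER comparison, 26.7% of all listed genes were higher and 24.1% lower. With Myc-ER, 15 of 17 tricarboxylic acid cycle enzymes rose and none fell (median 0.50), as did 10 of 15 regulators of mitochondrial gene expression (median 0.68). Suclg2, a subunit of succinyl-CoA synthetase, had 5892 normalised counts in Myc-ER cells and 1745 in empty-vector cells (1.74 ± 0.15, adjusted p = 1.12e-27), and Idh2, the mitochondrial isocitrate dehydrogenase that makes NADPH, 6395 normalised counts in Myc-ER cells and 2630.1 in empty-vector cells (1.23 ± 0.31, adjusted p = 0.000259). Among the regulators Peo1, the helicase of mitochondrial DNA, had 1702 normalised counts in Myc-ER cells and 774 in empty-vector cells (1.13 ± 0.14, adjusted p = 4.44e-14), and the methyltransferase family factors Tfb2m (0.99 ± 0.14) and Tfb1m (0.97 ± 0.25) rose as well. Cytochrome c itself, Cycs, had 7536 normalised counts in Myc-ER cells and 4948 in empty-vector cells (0.60 ± 0.11, adjusted p = 7.81e-08), and the complex III subunit Cyc1, which the symbol rule does not take in, changed by 0.50 ± 0.08 (adjusted p = 6.65e-09). Further assembly factors had 17 of 31 higher and 3 lower, with the ATP synthase factor Tmem70 at 1.07 ± 0.09, the complex I factor Acad9 at 1.02 ± 0.09, the Cox1 translation activator Taco1 at 1.14 ± 0.13, and the complex IV factor Cox20 lower at -1.16 ± 0.23.

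In the Myc-ER PKH-negative comparison, 18.9% of all listed genes were higher and 18.5% lower. There 11 of 17 cycle enzymes and 7 of 15 regulators rose and none fell. The coactivator Ppargc1a, known for driving mitochondrial gene programs, had 391 normalised counts in Myc-ER PKH-negative cells and 69.4 in PKH-negative cells (2.27 ± 0.38, adjusted p = 2.33e-08). In the knockout comparison, 22.3% of all listed genes were higher and 23.6% lower. The cycle enzymes there had 10 of 17 higher and none lower (median 0.44), with Suclg2 at 1.51 ± 0.37 and Idh2 at 1.32 ± 0.34, beside 9 of 78 listed structural subunits higher and 5 lower. Of 15 regulators 4 were higher in the knockout and 1 was lower. Ppargc1a there had 1889.8 normalised counts in knockout cells and 143 in empty-vector cells (3.69 ± 0.25, adjusted p = 2.47e-46). Of 31 further assembly factors 6 were higher and 4 lower, not above the shares of all listed genes, with a median of -0.05. The complex III assembly factor Lyrm7 had 148 normalised counts in knockout cells and 28.5 in empty-vector cells (2.32 ± 0.37, adjusted p = 4.29e-09), while the head assembly factors of the ATP synthase Atpaf1 (-0.66 ± 0.15, adjusted p = 7.51e-05) and Atpaf2 (-0.48 ± 0.12, adjusted p = 0.000179) fell. In the PKH-high comparison, 15.6% of all listed genes were higher and 15.1% lower. In PKH-high cells no cycle enzyme was higher and Suclg2 was lower (-0.45 ± 0.17, adjusted p = 0.0334), and none of 15 regulators passed, beside the 27 of 79 structural subunits that were higher. Atpif1, the inhibitor of the ATP synthase, was higher (0.46 ± 0.18, adjusted p = 0.0343), as was the copper chaperone of complex IV, Cox17, (0.94 ± 0.23, adjusted p = 0.000376). Of 31 further assembly factors, Cox17 among them, 6 were higher in PKH-high cells and none was lower. In tumour-labelled cells 3 of 17 cycle enzymes were higher, near the 13.5% of all listed genes, with Idh2 at 1.11 ± 0.33 and Suclg2 at 0.98 ± 0.18. With Nutlin-3, 7.71% of all listed genes were higher and 7.03% lower. There Idh2 fell (-0.38, adjusted p = 0.00684) and the receptor Esrra, a regulator of oxidative genes, rose (0.42, adjusted p = 0.00312). Idh2 and Esrra were the only genes called with Nutlin-3 among 17 cycle enzymes and 15 regulators.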

How the data were processed

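RNA of 24 libraries in 8 groups was sequenced after polyA selection. Per the submitters' processing notes, the build was mm10 and the tools were TopHat2 2.0.8, Bowtie2 2.1.0, DESeq2 1.10.1, HTSeq 0.5.3p9, SAMtools 0.1.18 and CASAVA 1.9. Per the file headers, the authors deposited 6 tables of genes with a mean above 10, each with the mean normalised count of both groups (a signal scaled by library size), the log2 fold change, and the p-value and adjusted p-value of their test, paired by tumour for Nutlin-3.

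From these, the implied standard error was computed from the size of the fold change and the standard normal deviate of the p. The tables hold no values per sample, so no new test was run, and p-values measure the spread between the authors' samples. The headers call them biological replicates, and the labels do not say which came from separate animals. Recomputed Benjamini-Hochberg values matched the deposited ones. The knockout table has 3 entries that name no gene and were left out, with 28.2% of the summed means in knockout cells and 29.7% in empty-vector cells. Lengths and coordinates are from GENCODE M21 on GRCm38 (89 of 90 members), promoters from RefSeq (75 of 90 members, 3 by a synonym).

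The members and gene lists were chosen with earlier results of these data known. Named in each comparison were the Sdh genes, the isoform pairs, and the 3 called members with the largest fold change in each direction of complexes I, III, IV and V and the Ndufaf factors, with up to 3 called genes of each other list; further members named as examples were chosen after their values were seen. Alternatives were a threshold of 0.01, p-values adjusted again over genes with a mean of 100 or more, the log2 ratio of the deposited means, centring on the median of all genes, and structural subunits only. The computation was tested on simulated data, with Python 3.11.15, numpy 2.4.6, pandas 2.3.3, scipy 1.17.1 and matplotlib 3.10.9.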

Additional observations from a re-analysis of the deposited data

How the results depend on the processing

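Medians of the members kept their direction in all 6 comparisons under the log2 ratio of the deposited means, centring on all listed genes and structural subunits only. At an adjusted p below 0.01, 3 members were called lower with Myc-ER and 3 in the knockout, and 0 in PKH-high cells and 0 with Nutlin-3, where 1 each was at 0.05, while 16 were higher in PKH-high cells and 2 with Nutlin-3. With p-values adjusted again over genes with a mean of 100 or more, 2 members were lower for Myc-ER in PKH-negative cells, a setting that tests fewer genes. The other counts stayed within 1.5 times. Of 176 values of named genes, 147 kept their side of the threshold at 0.01 and 29 did not, and 175 kept their direction as log2 ratios of means. The exception was Sdha with Nutlin-3, which did not pass, with an authors' log2 fold change of 0.0137 and a log2 ratio of -0.0034. No paired analysis was possible because the tables hold group means only, and leaving out each replicate was not run for the same reason. The tables used here give no read depth per library, so precision rests on the standard errors the authors' p-values imply.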

Other observations

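Of 6 adipocyte markers, Fabp4 was listed in all tables. Their listed members summed to 16334 normalised counts in tumour-labelled cells and 3978 in empty-vector cells, 10753.5 in knockout cells and 4407 in empty-vector cells, 7606 in Myc-ER cells and 4328 in empty-vector cells, 6021 in Myc-ER PKH-negative cells and 17296 in PKH-negative cells, 24751 in PKH-high cells and 15899 in PKH-negative cells, and 15294 in Nutlin-3-treated cells and 21806 in untreated cells. Their part in the results above was not tested.

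The nuclear genes for cytochrome c, other subunits and electron carriers outside the symbol rule had 2 of 7 higher with Myc-ER, where 26.7% of all listed genes were, 4 of 8 higher in Myc-ER PKH-negative cells (18.9% of all) and 2 of 7 in PKH-high cells (15.6% of all). In the Trp53 knockout 1 of 8 was higher and 1 lower, where 22.3% of all listed genes were higher and 23.6% lower. None of 7 passed the authors' DESeq2 test in tumour-labelled cells, where 13.5% of all listed genes were higher and 13.6% lower, or with Nutlin-3, where 7.71% were higher and 7.03% lower. At an unadjusted p below 0.05 there were 0 in tumour-labelled cells and 1, Atpif1, with Nutlin-3.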
